A study of Danio rerio with 30 samples.

Results

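The comparison described here is the response of zebrafish (Danio rerio) sibling neuromast cells to neomycin, an aminoglycoside antibiotic that kills lateral line hair cells. Its members are the 6 RNA-seq libraries of isl1a psi97 siblings, 3 in homeostasis and 3 collected 3 h after neomycin, out of 12 RNA-seq libraries and 30 samples in the series, of which 18 are ATAC-seq samples not analysed here. All 6 came from larvae at 5 dpf (days post fertilization) that carried the she:mcherry transgene, and mCherry-positive cells were sorted from the dissociated larvae. The treated larvae were kept in 300 uM neomycin for 30 min, washed and left to recover for 3 h, and the homeostasis larvae received no neomycin. The labels do not say whether the siblings are wild type or carry 1 mutant copy of isl1a, nor in which cells the she element is active. The design text calls the samples biological triplicates but names no clutches, so each p-value reflects how far these samples vary and no more.

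Neuromasts are the sense organs of the lateral line. Their hair cells detect water movement through a bundle of stereocilia, in which tip links made of cadherin 23 and protocadherin 15 pull on a mechanotransduction channel with TMC subunits, and they pass the signal on through ribbon synapses. Aminoglycosides enter through that channel and kill the cells, and the surrounding support cells then divide and differentiate into new hair cells. Notch, Fgf and Wnt signalling are known to control that replacement, and isl1a encodes a LIM homeodomain transcription factor.

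Each library held between 27387561 and 30354161 reads counted to genes, and 20939 genes were tested with edgeR's quasi-likelihood test. Levels are given as TMM-scaled CPM (counts scaled to library size), which are not corrected for gene length and so compare libraries but not genes. Neuromast genes were present throughout: EYA1, a placode transcription cofactor, was at 1318 to 1647 CPM in all 6 libraries, and the epithelial adhesion gene epcam at 1818 to 5588 CPM. One library stood apart. The 3 h replicate 2 library had 4.49% of its reads in the ambiguous class against 2.2% to 2.92% in the other 5, and a TMM factor of 0.772 against 0.986 to 1.14. Its profile correlated with those of its own group with a mean r of 0.919, against 0.94 to 0.968 for the other libraries. In that library ribosomal protein, proteasome and oxidative phosphorylation genes stood above both other 3 h libraries, with summed levels of 43000, 11700 and 17600 CPM against 22900 to 24300, 4690 to 4900 and 6420 to 6600 CPM. Counts over gene lists are therefore given with and without it for most lists, and some single genes are given both ways.

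**Figure D1:**
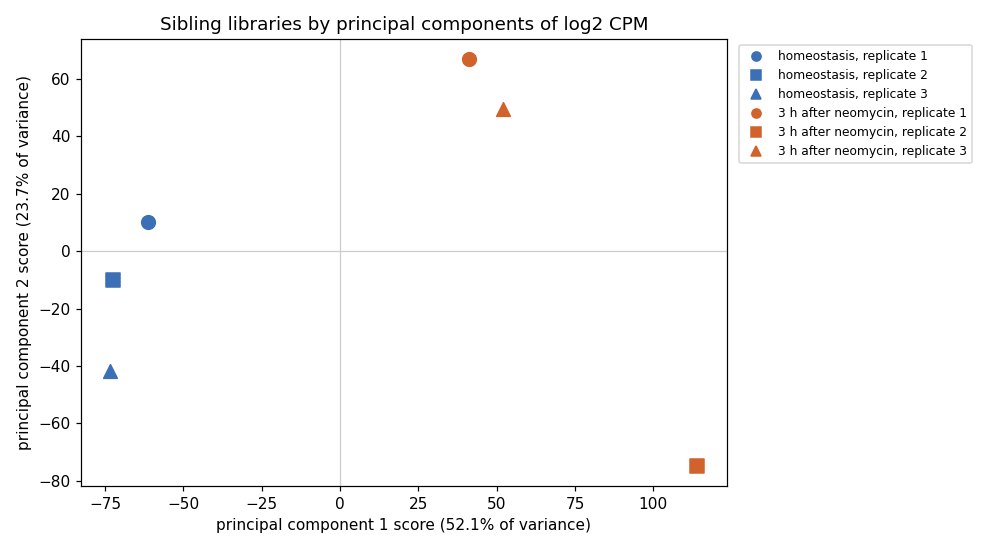
Scores of the 6 sibling libraries on the leading pair of principal components of log2 CPM, which hold 52.1% and 23.7% of the variance (colour, treatment; symbol, replicate). The homeostasis libraries lie between -73.3 and -61.3 on the horizontal axis and the 3 h libraries between 41.1 and 114, with 3 h replicate 2 at -74.7 on the vertical axis against 66.9 and 49.7 for the other 3 h libraries.

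Neomycin was followed by large changes in both directions. At an adjusted p under 0.05, 863 genes were higher 3 h after neomycin (4.12% of those tested) and 1424 were lower (6.8%). Of these, 833 and 1355 had a log2 fold change of at least 1 in size, and the median log2 fold change was 1.76 among the higher genes and -1.97 among the lower genes, against 0.07 over all tested genes. Without 3 h replicate 2 the counts rose to 1579 higher (7.3% of 21644) and 2442 lower (11.3%). That fit held 813 of the 863 higher genes (94.2%) and 1411 of the 1424 lower genes (99.1%), and no gene was called in opposite directions. The counts fell without a homeostasis library: without homeostasis replicate 1, 2 or 3, the counts were 195, 87 and 131 higher and 699, 606 and 677 lower. Without 3 h replicate 3 they were 535 and 835, and without 3 h replicate 1 they were 996 and 1211. In all 6 fits that leave out 1 library, 60 genes stayed higher and 566 stayed lower.

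The genes that fell with the smallest adjusted p were chosen for separate groups and for a call without 3 h replicate 2, so neither is a finding about them. SPATA18, which encodes a mitochondrial quality control protein, was at 82.1, 72.9 and 74.5 CPM in the homeostasis libraries and at 5.01, 5.47 and 4.45 CPM in the 3 h libraries (log2 fold change -3.94 ± 0.24 SE, adjusted p = 0.00102). The baiap2l2a gene, whose mouse counterpart makes a stereocilia membrane protein, was at 30.6, 31.0 and 30.0 CPM before and at 1.67, 1.71 and 2.74 CPM after. The clic5a gene, whose mouse counterpart is a base component of stereocilia, was at 13.4, 19.1 and 14.7 CPM before and at 0.45, 0.598 and 0.692 CPM after. The 15 genes named by smallest adjusted p also held osbp2a (an oxysterol-binding protein), the synaptic adhesion gene SLITRK4, ptpn20, PITPNA, GALNT9, KLHDC7A, lmo7b, AMPD3 (ENSDARG00000005800), DNAI4, akap1a, lrrc53 and the glycogen phosphorylase gene PYGM (ENSDARG00000013317). Their log2 fold changes ran from -4.26 for KLHDC7A to -3.04 for PITPNA, and all 15 were called in each of the 6 fits that leave out 1 library.

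Genes of every functional class of differentiated hair cells examined fell. In bulk RNA, fewer cells of a type and less RNA per cell cannot be told apart, and this holds for every result below. Among mechanotransduction genes, 12 of 22 tested members fell and none rose, with a median log2 fold change of -1.46 (18 of 23 fell without 3 h replicate 2, median -1.82). Among stereocilia and cytoskeleton genes 13 of 24 fell, with a median of -1.68 (15 without that library). Among ribbon synapse genes 9 of 21 fell, with a median of -1.29 (10 without it), and among calcium-binding and pump genes 6 of 13 fell, with a median of -1.87 (9 without it). The mechanotransduction count was 6 without homeostasis replicate 1 or 2, and the ribbon synapse count was 6 without either. Those fits called 699 and 606 genes lower in all, against 1424 with 6 libraries. The share of all genes that fell was 6.8%, or 11.3% without 3 h replicate 2. No gene of the 4 lists rose by edgeR's test, and DESeq2 called 2 genes of the calcium list higher.

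**Figure D2:**
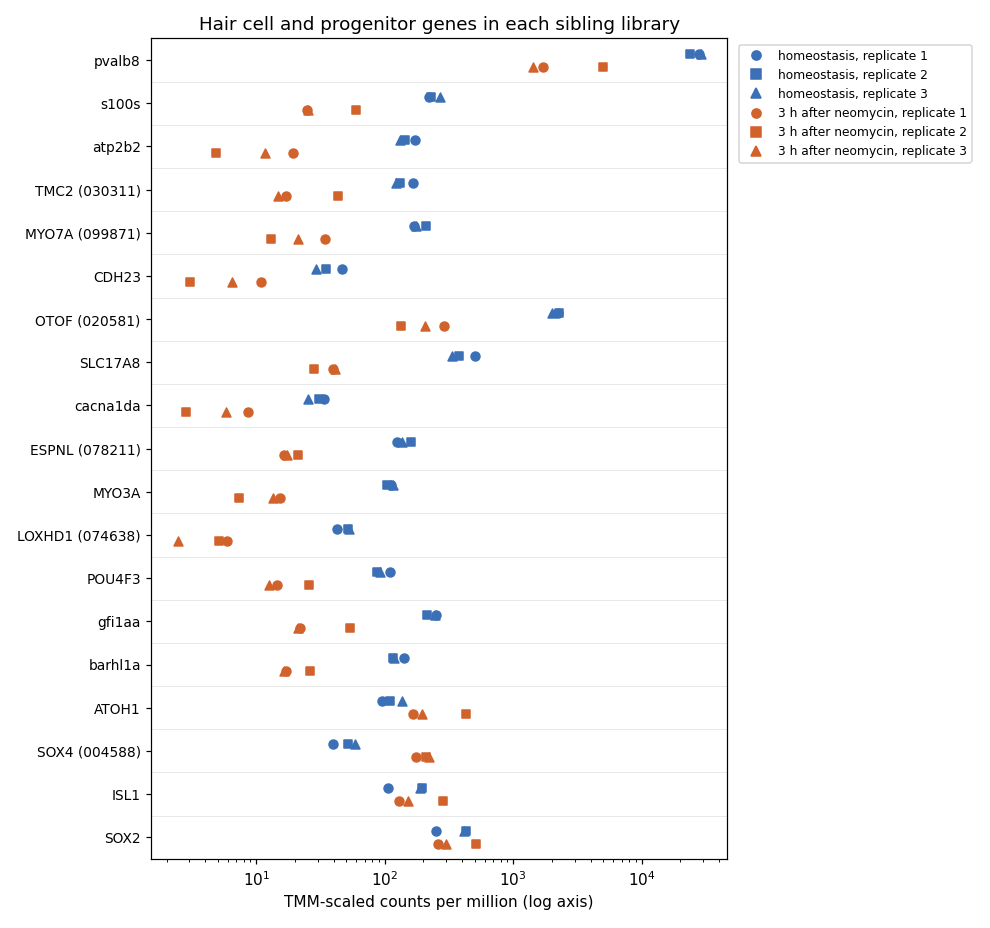
Level of 19 hair cell and progenitor genes in each sibling library, in TMM-scaled CPM on a log axis (blue, homeostasis; orange, 3 h after neomycin; symbol, replicate). The 15 genes from pvalb8 to barhl1a are lower in all 3 libraries at 3 h, ATOH1 and SOX4 are higher in all 3, and the groups overlap in ISL1 and SOX2.

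The transduction apparatus itself fell. TMC2 (ENSDARG00000030311), a subunit of the transduction channel, was at 166.7, 130.9 and 122.7 CPM in homeostasis and at 16.9, 43.0 and 14.8 CPM at 3 h (log2 fold change -2.50 ± 0.43 SE, adjusted p = 0.0104), and at -3.15 without 3 h replicate 2. MYO7A (ENSDARG00000099871), the unconventional myosin of the transduction complex, was at 170, 210 and 175 CPM before and at 34.2, 13.0 and 21.0 CPM after (-3.02 ± 0.37 SE, adjusted p = 0.0026). The tip link genes were lower in every 3 h library too. PCDH15 (ENSDARG00000008127) was at 54.8 to 76.1 CPM before and 10.4 to 17.02 CPM after, and its relative pcdh15b at 10.32 to 13.9 CPM before and 1.92 to 2.41 CPM after. CDH23 was at 46.6, 34.6 and 29.3 CPM before and at 10.8, 3.03 and 6.43 CPM after (-2.44 ± 0.45 SE, adjusted p = 0.0137), a call lost without homeostasis replicate 1 or 2 (adjusted p = 0.057). Not every member was called. CLRN2, a clarin of the hair bundle, was at 46.7, 72.8 and 67.4 CPM before and at 31.6, 90.2 and 32.7 CPM after, so that the groups overlapped through 3 h replicate 2 (log2 fold change -0.28 with it, adjusted p = 0.736, and -0.96 without it, adjusted p = 0.0187). GRXCR1, a glutaredoxin-like bundle protein, was similar, at -1.08 with that library and -1.88 without it (adjusted p = 0.19 and 0.0011).

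At the ribbon synapse, SLC17A8, the vesicular glutamate transporter of hair cells, was at 507, 375 and 335 CPM in homeostasis and at 39.4, 27.9 and 41.1 CPM at 3 h (log2 fold change -3.49 ± 0.30 SE, adjusted p = 0.0012). OTOF (ENSDARG00000020581), one of the genes for otoferlin, the calcium sensor of vesicle release, was at 2230, 2250 and 1989 CPM before and at 290, 134 and 205 CPM after (-3.36 ± 0.36 SE, adjusted p = 0.0015). The other OTOF gene (ENSDARG00000030832) was at 286 to 364 CPM before and 40.9 to 61.2 CPM after. The calcium channel subunit cacna1da was at 25.1 to 33.8 CPM before and 2.82 to 8.67 CPM after, a call lost without homeostasis replicate 2 (adjusted p = 0.051). The large-conductance potassium channel gene KCNMA1 (ENSDARG00000079840) was at 89.3 to 122.9 CPM before and 14.3 to 22.4 CPM after. The groups were separate in all of these. Of the members not called, ctbp2a, a ribbon protein gene, had a log2 fold change of -0.32 (adjusted p = 0.448), and SNAP25 (ENSDARG00000020609), a general vesicle fusion gene, of 0.65 (adjusted p = 0.33).

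In the bundle, ESPNL (ENSDARG00000078211), an espin-like actin bundling gene, was at 125, 160 and 136 CPM in homeostasis and at 16.4, 21.3 and 17.4 CPM at 3 h (log2 fold change -2.94 ± 0.25 SE, adjusted p = 0.0011). MYO3A, a bundle-tip myosin, was at 113, 104 and 115 CPM before and at 15.3, 7.3 and 13.5 CPM after (-3.19 ± 0.32 SE). LOXHD1 (ENSDARG00000074638), required for hair cell function in mice, was at 42.6 to 52.5 CPM before and 2.44 to 5.88 CPM after. All 3 were called in each of the 6 fits that leave out 1 library. The calcium-buffering parvalbumin gene pvalb8 was at 27800, 23620 and 28690 CPM before and at 1705, 5007 and 1430 CPM after (-3.30 ± 0.55 SE, adjusted p = 0.00898; -4.09 without 3 h replicate 2), and it remained well above 0 in every 3 h library. The plasma membrane calcium pump atp2b2 was at 172, 143 and 131 CPM before and at 19.2, 4.82 and 11.8 CPM after (-3.64 ± 0.48 SE), and the calcium-binding gene s100s at 222, 230 and 270 CPM before and 24.7, 60.1 and 25.2 CPM after. Replicate 2 of the 3 h group was thus the highest of its group for pvalb8, s100s and TMC2 and the lowest for atp2b2, CDH23 and MYO7A. The related s100t missed the threshold with all 6 libraries (-1.91, adjusted p = 0.067) and was called without that library (-2.89, adjusted p = 0.000239). ATP2B1, another calcium pump, was called lower at -1.87, and that call was lost in 5 of the 6 fits that leave out 1 library (all but the one without 3 h replicate 2), with adjusted p of 0.0668 to 0.104.

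The transcription factors of hair cell identity divided. Of 30 tested specification genes, 5 fell (16.7%, against 6.8% of all genes) and 1 rose (3.33%, against 4.12%), and the median log2 fold change was 0.17. With 3 h replicate 2 left out, 8 fell and 3 rose, and the median was -0.09. Those that fell are factors of differentiated hair cells. POU4F3 was at 110, 87.6 and 92.0 CPM in homeostasis and at 14.5, 25.9 and 12.5 CPM at 3 h (-2.45 ± 0.33 SE, adjusted p = 0.0037), and gfi1aa at 251, 214 and 248 CPM before and 22.0, 53.6 and 21.1 CPM after (-2.88 ± 0.41 SE, adjusted p = 0.0045). The homeobox genes barhl1a, BARHL1 and LHX3 had log2 fold changes of -2.67, -2.66 and -2.39. The gene that rose was SOX4 (ENSDARG00000004588), a SoxC factor of progenitors, from 39.5, 51.5 and 58.7 CPM to 176, 208 and 221 CPM (2.01 ± 0.25 SE, adjusted p = 0.0028). All 6 calls held in each fit that leaves out 1 library.

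Genes of new hair cell progenitors were mostly not called. ATOH1, the proneural factor that starts hair cell formation, was at 95.7, 109 and 136 CPM before and at 166, 429 and 195 CPM after. All 3 libraries at 3 h were above all 3 in homeostasis, the difference missed the threshold with 6 libraries (1.21 ± 0.39 SE, adjusted p = 0.0838) and passed it without 3 h replicate 2, at a smaller size (0.66, adjusted p = 0.0417). The 2 genes named DLL1, whose products are Delta ligands, had log2 fold changes of 0.30 (ENSDARG00000010791) and -0.36 (ENSDARG00000020219), and INSM1 (ENSDARG00000053301) and HES6 (ENSDARG00000019335) of 0.38 and 0.57, with adjusted p of 0.424 to 0.477 and overlapping groups. The isl1a gene itself, named ISL1, was at 105, 196 and 187 CPM in homeostasis and at 128, 283 and 151 CPM at 3 h (0.20 ± 0.38 SE, adjusted p = 0.778).

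Of 21 tested genes of central and dorsoventral support cells 3 fell by edgeR's test (14.3%, against 6.8% of all genes), with a list median log2 fold change of -0.57. None rose by that test (3 higher at an unadjusted p under 0.05 and 3 by DESeq2). Without 3 h replicate 2 10 fell and 2 rose, against 11.3% and 7.3% of all genes in that fit. With all 6 libraries 3 fell. The 3 were SOST, a secreted Wnt inhibitor of dorsoventral support cells, from 129, 162 and 187 CPM to 72.5, 56.2 and 34.1 CPM (-1.55 ± 0.32 SE, adjusted p = 0.0199), FGF10 (ENSDARG00000100475), a secreted growth factor, and LFNG, a Notch-modifying glycosyltransferase. These calls were fragile: that of SOST was lost without any 1 of the homeostasis libraries or 3 h replicate 3 (adjusted p = 0.052 to 0.087), that of FGF10 without any library but 3 h replicate 2 (0.0525 to 0.1025), and that of LFNG without homeostasis replicate 2 or 3 or 3 h replicate 1 or 3 (0.0964 to 0.174). Of 24 genes of mantle and anteroposterior support cells 1 rose (4.17%, against 4.12% of all genes) and 1 fell (4.17%, against 6.8%), with a median of 0.26. The counts were 5 and 2 without 3 h replicate 2, against 7.3% and 11.3% of all genes in that fit. The gene that fell was PRDM1, a transcriptional repressor, from 288, 313 and 305 CPM to 116, 102 and 112 CPM (-1.46 ± 0.22 SE, adjusted p = 0.00597), and the one that rose was FOSL1, described with its family below. Both were called in every fit that leaves out 1 library.

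Of 24 genes expressed across the neuromast 2 fell and 1 rose, shares near those of all genes (8.33% against 6.8% and 4.17% against 4.12%). The 2 were both genes named PAX2, a transcription factor of the otic and hair cell lineages, from 40.0 to 48.2 CPM down to 5.43 to 14.5 CPM (ENSDARG00000032578) and from 34.6 to 54.4 CPM down to 14.6 to 15.5 CPM (ENSDARG00000028148). MET, the hepatocyte growth factor receptor gene, rose from 146 to 168 CPM up to 268 to 360 CPM (0.96 ± 0.24 SE, adjusted p = 0.0374), a call lost in 5 of the 6 fits that leave out 1 library, all but the one without 3 h replicate 2 (adjusted p = 0.0575 to 0.196). SOX2, a progenitor factor of support cells, was at 249, 427 and 417 CPM before and at 260, 511 and 300 CPM after (-0.03, adjusted p = 0.97). Without 3 h replicate 2 the counts of the list were 2 lower and 2 higher of 24, against 11.3% and 7.3% of all genes in that fit.

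Of 10 tested Notch ligand genes 3 fell (30.0%, against 6.8% of all genes) and none rose. These counts were the same without 3 h replicate 2, against 11.3% of all genes lower in that fit. The Delta ligand dll4 was at 95.0, 106 and 100 CPM in homeostasis and at 21.0, 17.2 and 18.2 CPM at 3 h (log2 fold change -2.41 ± 0.23 SE, adjusted p = 0.0012). The Jagged ligand jag2a was at 91.9, 170 and 131 CPM before and at 38.01, 24.6 and 35.0 CPM after (-2.01 ± 0.31 SE), and jag2b at 198, 232 and 180 CPM before and at 82.3, 38.5 and 63.5 CPM after, a call lost without homeostasis replicate 1 or 2 (adjusted p = 0.0508 and 0.0699). The groups were separate for all 3. Of 15 receptors and modifiers only LFNG was called with 6 libraries, and the receptor gene NOTCH3 was at -0.56 (adjusted p = 0.304). Without 3 h replicate 2 RBPJ (ENSDARG00000052091) was called higher too (0.69, adjusted p = 0.0397).

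Of 22 Notch target genes 1 fell (4.55%, below the 6.8% of all genes). Without 3 h replicate 2 3 fell, against 11.3% of all genes in that fit. None fell without homeostasis replicate 2 or 3 or 3 h replicate 1 or 3. The gene that fell with 6 libraries was HEY1, a Hairy-related repressor, from 107, 217 and 249 CPM to 63.2, 69.6 and 79.3 CPM (-1.43 ± 0.34 SE, adjusted p = 0.0305). Its call was lost without homeostasis replicate 2 or 3 or 3 h replicate 1 or 3 (adjusted p = 0.0708 to 0.128). Homeostasis replicate 1 was the lowest of its group for 20 of the 22: her15.1 was at 48.4 CPM there against 135 and 143 CPM, and her4.2 at 7.91 against 25.7 and 24.1 CPM. For her15.1 3 h replicate 2 was the highest of its group, at 178 against 83.2 and 96.0 CPM. Its groups overlapped with that library (0.13, adjusted p = 0.89) and without it (-0.28, adjusted p = 0.694). The list median was -0.56 with 6 libraries and -0.82 without 3 h replicate 2, against 0.07 and 0.02 over all genes.

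Among Fgf genes, 1 of 12 ligands, FGF10 (ENSDARG00000100475), and 1 of 15 targets and inhibitors fell. With 6 libraries these shares of 8.33% and 6.67% are near the 6.8% of all genes. Without 3 h replicate 2, 3 ligands and 2 targets (ETV4 and etv5a) fell, against 11.3% of all genes in that fit. With 6 libraries DESeq2 called 2 ligands and 4 targets and inhibitors lower. None of 7 receptors was called by edgeR, by DESeq2 or without 3 h replicate 2 (1 higher at an unadjusted p under 0.05). FGF10 (ENSDARG00000100475) was at 72.9, 58.5 and 61.9 CPM before and at 12.1, 33.3 and 16.2 CPM after (-1.65 ± 0.38 SE, adjusted p = 0.029). The other FGF10 gene (ENSDARG00000030932) was at 214, 190 and 193 CPM before and at 143, 150 and 120 CPM after. Its log2 fold change was -0.53 with 6 libraries (adjusted p = 0.171) and -0.60 without 3 h replicate 2 (adjusted p = 0.031). The target that fell with 6 libraries was ETV4, an ETS transcription factor induced by Fgf, from 138, 111 and 177 CPM to 51.6, 27.6 and 33.7 CPM (-1.92 ± 0.32 SE, adjusted p = 0.00855). It was called in all 6 fits that leave out 1 library. Of the other 14 members 12 had a negative log2 fold change, without a call with 6 libraries. Of these etv5a, etv5b, SPRY4 and DUSP6, feedback targets or inhibitors of the pathway, had log2 fold changes of -0.88, -0.86, -0.84 and -1.12, with adjusted p of 0.0852 to 0.119. The MAP kinase phosphatase DUSP4 went the other way, from 13.5, 7.51 and 6.03 CPM to 14.9, 16.7 and 20.3 CPM (0.94, adjusted p = 0.128), and FLRT3 was at 0.12. Of the 15, 11 had all 3 libraries at 3 h below all 3 in homeostasis, in a table in which 35.3% of all genes had groups that did not overlap in 1 direction or the other. FGF3, a ligand of the centre of the neuromast, was at 49.4, 107 and 116 CPM before and at 43.9, 61.0 and 45.1 CPM after (-0.86, adjusted p = 0.157).

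Of 21 Wnt ligands none was called by edgeR with 6 libraries (3 higher and 1 lower at an unadjusted p under 0.05), and DESeq2 called 1 in each direction. Without 3 h replicate 2 1 Wnt ligand rose and 2 fell by edgeR's test, against 7.3% and 11.3% of all genes in that fit. Of 32 Wnt inhibitors and targets 3 fell (9.38%, against 6.8% of all genes) and 1 rose (3.12%, against 4.12%). Of the 32, 25 had a positive log2 fold change and 7 a negative one. The list median was 0.46 (0.51 without 3 h replicate 2), against 0.07 and 0.02 over all genes. Besides SOST those that fell were lgr6, an R-spondin receptor gene, from 43.4, 43.3 and 44.1 CPM to 15.8, 7.09 and 17.2 CPM (-1.70 ± 0.35 SE), and the inhibitor dkk2, from 36.5, 94.9 and 68.2 CPM to 15.06, 25.9 and 13.2 CPM (-1.88 ± 0.41 SE). The secreted inhibitor WIF1 rose from 36.8 to 37.3 CPM up to 55.6 to 77.7 CPM (0.85 ± 0.23 SE, adjusted p = 0.049). All 3 calls were lost in 3 or more of the fits that leave out 1 library: lgr6 without any homeostasis library (adjusted p = 0.0675 to 0.0818), dkk2 without homeostasis replicate 2 or 3 or 3 h replicate 1 or 3 (0.0558 to 0.1), and WIF1 without any library but 3 h replicate 2 (0.0521 to 0.204). Without 3 h replicate 2 the counts of the list were 7 higher and 3 lower of 33, against 7.3% and 11.3% of all genes in that fit.

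Immediate early transcription factors and a complement gene were among the genes that rose steeply, and genes were not ranked by fold change. As for the lower genes, the higher genes of smallest adjusted p were chosen for separate groups and for a call without 3 h replicate 2. The zinc finger factor egr4 was at 0.534, 0.524 and 0.289 CPM in homeostasis and at 18.04, 67.9 and 28.5 CPM at 3 h (log2 fold change 6.39 ± 0.62 SE, adjusted p = 0.0013). The complement gene c7b was at 0.22, 0.594 and 0.108 CPM before and at 18.8, 38.9 and 35.2 CPM after (6.64 ± 0.62 SE, adjusted p = 0.0012). Both were called in all 6 fits that leave out 1 library.

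Of 15 AP-1 subunit genes, the stress-responsive leucine zipper factors, 4 rose (26.7%, against 4.12% of all genes) and none fell. Their median log2 fold change was 0.88. Without 3 h replicate 2 5 rose and 1 fell, against 7.3% and 11.3% of all genes in that fit. FOSB was at 1.82, 0.629 and 0.613 CPM before and at 21.2, 27.4 and 19.0 CPM after (4.45 ± 0.49 SE, adjusted p = 0.0016), and FOSL1 at 3.04, 2.27 and 4.04 CPM before and 26.7, 19.9 and 25.0 CPM after (2.94 ± 0.32 SE, adjusted p = 0.0015). FOS was at 23.7, 8.7 and 12.6 CPM before and at 53.2, 183 and 62.2 CPM after, and at 2.73 with 3 h replicate 2 and 1.94 without it, and its call was lost without homeostasis replicate 2 or 3 (adjusted p = 0.101 and 0.0922). The fosl1b gene had no read in the 3 homeostasis libraries and 14, 105 and 71 reads at 3 h, which makes it at least 65.8-fold higher against a floor of 3 reads over the homeostasis group, and its call was lost without any 1 of the homeostasis libraries (adjusted p = 0.0502 to 0.0587). No Jun gene was called. JUNB (ENSDARG00000104773) was at 90.6, 52.4 and 78.6 CPM before and at 121, 216 and 122 CPM after, with separate groups (1.05, adjusted p = 0.0798). JUN was at 473, 328 and 430 CPM before and at 245, 369 and 254 CPM after (-0.50, adjusted p = 0.294), and fell without 3 h replicate 2 (-0.72, adjusted p = 0.039). Of 39 other immediate early genes 2 rose, egr4 and the MAP kinase phosphatase DUSP5, and 1 fell. These shares of 5.13% and 2.56% are near and below those of all genes (4.12% and 6.8%). Without 3 h replicate 2 the counts of that list were 1 higher and 3 lower, against 7.3% and 11.3% of all genes in that fit. egr1 was at 0.88 (adjusted p = 0.18). The call of DUSP5 was lost without 3 h replicate 2 or 3 or homeostasis replicate 2 or 3 (adjusted p = 0.0577 to 0.167).

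**Figure D3:**
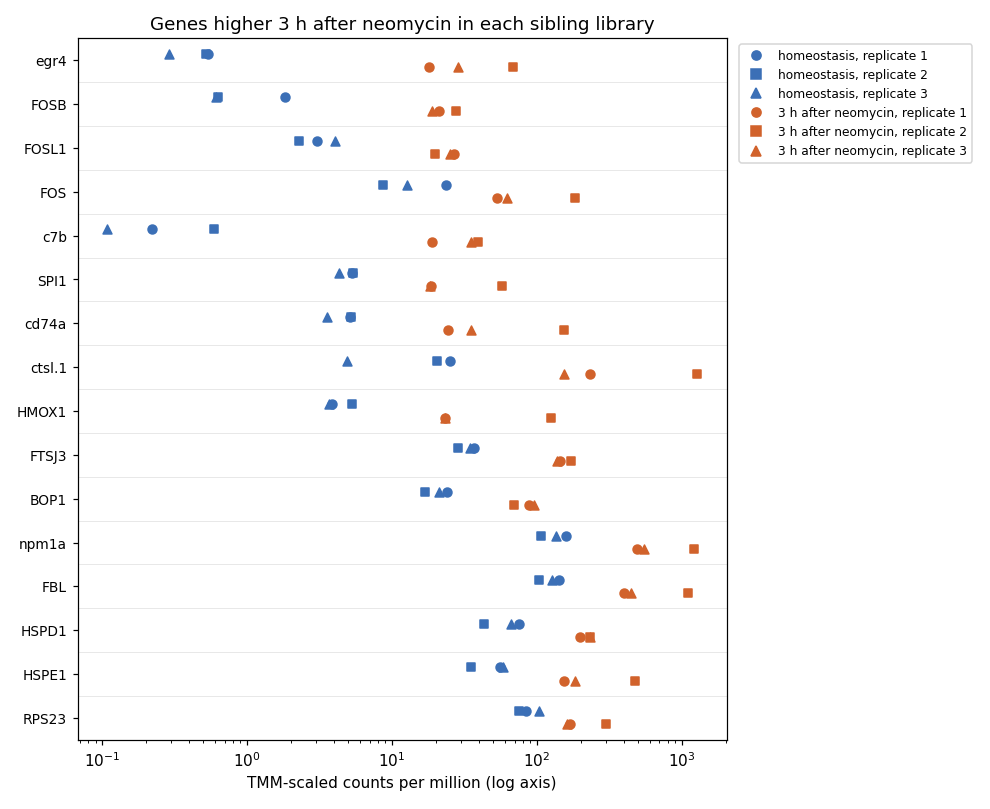
Level of 16 genes called higher 3 h after neomycin in each sibling library, in TMM-scaled CPM on a log axis (blue, homeostasis; orange, 3 h after neomycin; symbol, replicate). In all 16 the 3 h libraries lie above the homeostasis libraries, and 3 h replicate 2 is the highest of its group in ctsl.1, cd74a and HMOX1 and the lowest in FOSL1 and BOP1.

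Leukocyte genes were higher as a group. Of 37 tested members of the list 24 rose and none fell, with a median log2 fold change of 2.24, against 4.12% of all genes and a median of 0.07. Without 3 h replicate 2 23 rose, with a median of 1.67, against 7.3% of all genes in that fit and a median of 0.02. The summed level of the list was 293, 310 and 181 CPM in homeostasis and 827, 2110 and 685 CPM at 3 h, and no marker was at 0 in all libraries. SLC7A7, an amino acid transporter of macrophages, was at 2.51, 1.64 and 0.433 CPM before and at 19.9, 47.0 and 18.8 CPM after (4.21, adjusted p = 0.0069). SPI1, the myeloid transcription factor PU.1, was at 5.27, 5.38 and 4.33 CPM before and at 18.6, 57.2 and 18.3 CPM after (2.65, adjusted p = 0.013; 1.88 without 3 h replicate 2). The antigen presentation gene mhc2dab rose by 3.55 and cd74a by 3.93, and the macrophage perforin gene MPEG1 (ENSDARG00000055290) by 2.88. The pan-leukocyte phosphatase ptprc was at 7.6, 8.42 and 2.27 CPM before and at 19.9, 11.3 and 12.4 CPM after (1.25, adjusted p = 0.145). Without homeostasis replicate 1, 2 or 3 the count was 3 of 39, 3 of 38 and 4 of 39. Those fits called 195, 87 and 131 genes higher in all, against 863 with 6 libraries. The list median stayed between 1.87 and 2.43. The calls of SPI1, cd74a and MPEG1 were lost in those fits (adjusted p of 0.0587 to 0.0703, for MPEG1 without replicate 1 or 2), and those of SLC7A7 and mhc2dab held in all 6.

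Inflammation genes outside that list changed in small numbers. Of 33 tested genes of the NF-kB and inflammation list 5 rose, a larger share than the 4.12% of all genes. Only 1 fell, a smaller share than the 6.8% of all genes. Of the 5, 2 are MPEG1 genes that the leukocyte list holds too. DESeq2 called 8 higher and 1 lower. Without 3 h replicate 2 5 were higher and 2 lower, against 7.3% and 11.3% of all genes in that fit. The count of higher genes was 0, 1 and 1 without homeostasis replicate 1, 2 and 3, in fits that called 195, 87 and 131 genes higher in all. The chemokine gene cxcl8a was at 0.691, 0.594 and 1.16 CPM before and at 4.46, 13.9 and 1.84 CPM after (3.04 ± 0.74 SE; 1.95 without 3 h replicate 2), irf1a, an interferon regulatory factor, at 0.244 to 1.16 CPM before and 3.66 to 6.15 CPM after, and tnfaip2b at 1.0 to 2.38 CPM before and 5.2 to 13.1 CPM after. The calls of cxcl8a and irf1a were lost without any homeostasis library, that of irf1a also without 3 h replicate 3, and that of tnfaip2b without homeostasis replicate 1 or 3 (adjusted p = 0.0564 to 0.151), and the part of leukocyte RNA in them was not tested. The gene that fell was PTGS2 (ENSDARG00000010276), a prostaglandin synthase, from 16.1, 31.2 and 24.1 CPM to 5.88, 6.06 and 4.98 CPM (-2.08 ± 0.31 SE, adjusted p = 0.006), a call that held in all 6 fits. None of 24 Jak-Stat3 cytokine signalling genes was called by edgeR (3 higher and 4 lower at an unadjusted p under 0.05), and DESeq2 called 2 in each direction. Without 3 h replicate 2 3 were higher and 2 lower, against 7.3% and 11.3% of all genes in that fit. Of 21 matrix protease genes 1 fell (4.76%, against 6.8% of all genes) and 2 rose (9.52%, against 4.12%). Without 3 h replicate 2 1 of these genes fell and 3 rose, against the same 11.3% and 7.3%. The collagenase gene mmp13b fell from 2.04 to 2.38 CPM down to 0.0427 to 0.264 CPM (-3.86 ± 0.62 SE). TIMP2 (ENSDARG00000075261), a metalloproteinase inhibitor, and adam8b rose by 1.72 and 2.07. The calls of TIMP2 (without homeostasis replicate 2 or 3, adjusted p = 0.0698 and 0.0633) and adam8b (without any homeostasis library or 3 h replicate 3, 0.0793 to 0.0956) did not hold in every fit.

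Ribosome biogenesis genes rose in large numbers. Of 62 tested members 52 rose (83.9%, against 4.12% of all genes) and none fell, with a median log2 fold change of 1.66. Without 3 h replicate 2 58 rose, with a median of 1.38, against 7.3% of all genes in that fit. These genes make and modify ribosomal RNA and assemble the subunits in the nucleolus. BOP1, a large-subunit assembly factor, was at 23.8, 16.8 and 21.0 CPM in homeostasis and at 88.6, 69.0 and 96.1 CPM at 3 h (2.04 ± 0.26 SE, adjusted p = 0.0028), and the nucleolar gene tsr1 at 55.8, 47.9 and 54.6 CPM before and 142, 160 and 157 CPM after (1.54 ± 0.22 SE). The nucleolar chaperone npm1a was at 158, 106 and 136 CPM before and at 491, 1220 and 548 CPM after (2.50 ± 0.41 SE, and 1.96 without 3 h replicate 2), and FBL, the ribosomal RNA methyltransferase fibrillarin, at 142, 104 and 126 CPM before and at 397, 1098 and 449 CPM after (2.38 ± 0.43 SE, and 1.77 without it). FTSJ3, another ribosomal RNA methyltransferase and not a member of the list, rose from 28.4 to 36.7 CPM up to 137 to 172 CPM (2.19 ± 0.24 SE). The summed level of the list was 3040 to 4260 CPM before and 8830, 15100 and 9480 CPM after. As for the leukocyte list, the count fell without homeostasis replicate 1, 2 or 3, to 18, 4 and 7 of 62. Those fits called 195, 87 and 131 genes higher in all, against 863 with 6 libraries. The list median stayed between 1.49 and 1.8. BOP1, tsr1 and FTSJ3 were called in every such fit, the call of npm1a was lost without homeostasis replicate 2 (adjusted p = 0.0555) and that of FBL without any homeostasis library (0.053 to 0.0733).

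Chaperones rose in smaller numbers. Of 40 heat shock and chaperone genes 12 rose by edgeR's test (30.0%, against 4.12% of all genes) and none fell, with a median of 0.99. Without 3 h replicate 2 15 of 42 rose and 2 fell, with a median of 0.74, against 7.3% and 11.3% of all genes in that fit. DESeq2 called 18 higher and 3 lower, and 3 were lower at an unadjusted p under 0.05. The mitochondrial chaperonin HSPD1 was at 74.6, 43.3 and 66.4 CPM before and at 200, 233 and 233 CPM after (1.85 ± 0.27 SE, adjusted p = 0.0057), and its partner HSPE1 at 55.7, 35.1 and 58.4 CPM before and at 154, 475 and 183 CPM after (2.44 ± 0.47 SE; 1.76 without 3 h replicate 2). Of the 12, 7 were subunits of the cytosolic chaperonin, CCT2, CCT3, CCT4, CCT5, CCT7, CCT8 and TCP1, with log2 fold changes of 1.07 to 1.4. Without homeostasis replicate 1, 2 or 3 the count was 1, 1 and 4, and without 3 h replicate 3 it was 4. Those fits called 195, 87, 131 and 535 genes higher in all, against 863 with 6 libraries. HSPD1 held in all 6 fits, the call of HSPE1 was lost without any homeostasis library (adjusted p = 0.0609 to 0.0846), and those of the 7 subunits were lost in 2 to 4 of the 6 fits (0.0657 to 0.188).

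The calls of ribosomal protein genes depended on 1 library and on the tool. Of 78 tested genes 77 had a positive log2 fold change, with a median of 1.00, and 75 had all 3 libraries at 3 h above all 3 in homeostasis, in a table in which 35.3% of all genes had separate groups. By edgeR's test 1 rose and 1 fell. Without 3 h replicate 2 49 were called higher, with a smaller median of 0.59, against 7.3% of all genes in that fit. With 6 libraries DESeq2 called 62 higher and limma with library weights 70, out of 1873 and 2551 genes called higher in all. RPL10A was at 272, 252 and 309 CPM before and at 448, 718 and 438 CPM after (0.94, adjusted p = 0.0706, and 0.67, adjusted p = 0.0219, without that library). No proteasome or oxidative phosphorylation gene was called by edgeR, against 3 and 1 by DESeq2, all higher, and 19 and 2 higher at an unadjusted p under 0.05. Their medians were 0.89 and 0.55 with 6 libraries and 0.29 and -0.16 without 3 h replicate 2, so the sign of the latter turned with that library.

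Almost no cell cycle gene was called at this spread. None of 61 S phase genes and none of 60 genes of G2 and mitosis was called by edgeR's quasi-likelihood test, and without 3 h replicate 2 none and 1 were called. The medians were 0.24 and 0.09 (0.19 and -0.08 without that library), against 0.07 (0.02) over all genes. Of the S phase genes 50 had a positive log2 fold change and 11 a negative one, and of the G2 and mitosis genes 37 and 23. At an unadjusted p under 0.05, 3 S phase genes were higher and 1 gene of G2 and mitosis was lower, DESeq2 called 1 of each list, and limma with library weights called 3 and 1.

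**Figure D4:**
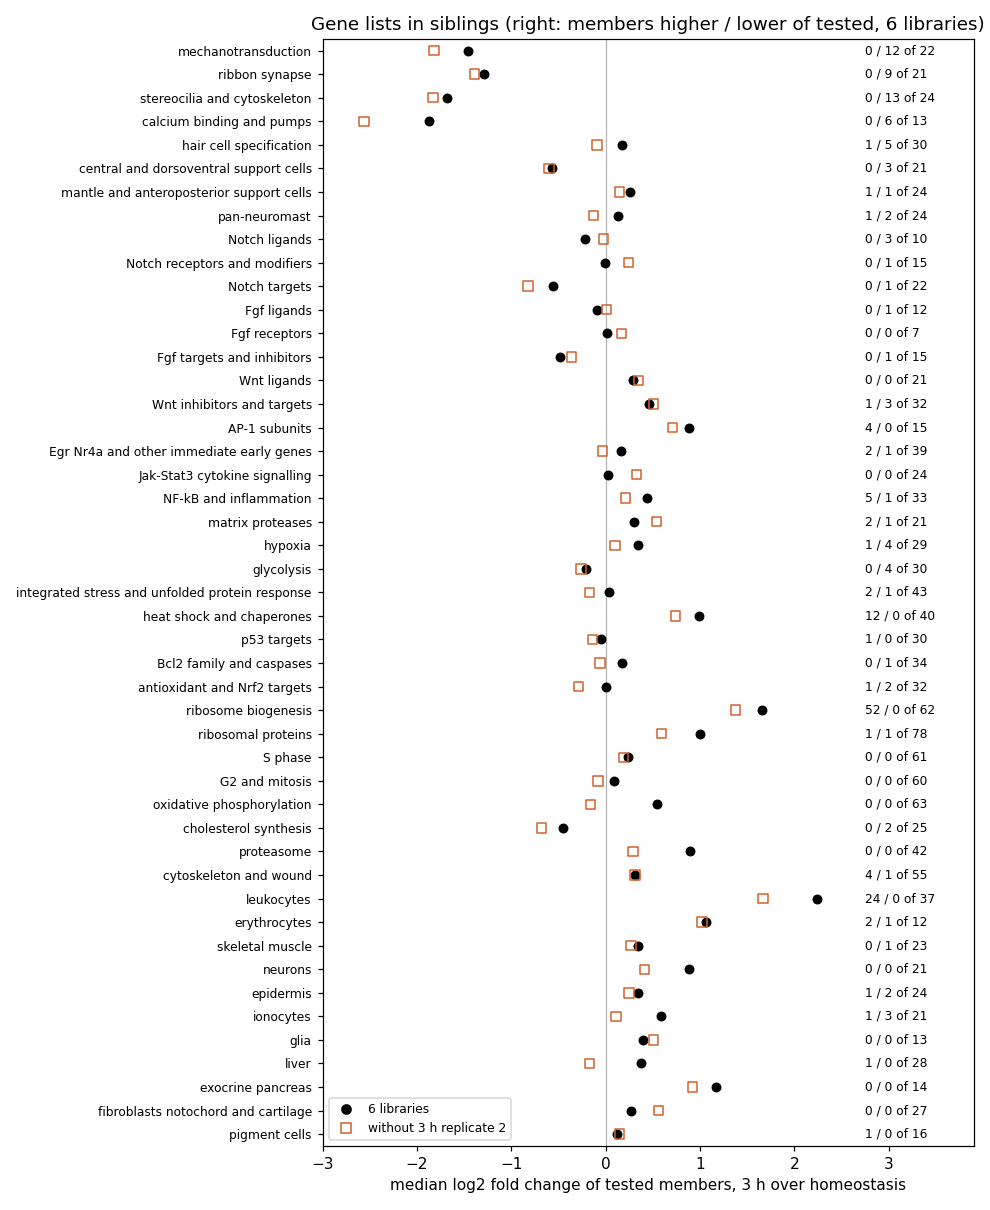
Median log2 fold change of the tested members of each of the 47 gene lists, with 6 libraries (black circles) and without 3 h replicate 2 (open squares), and at the right the members called higher and lower of those tested with 6 libraries. The 4 lists of differentiated hair cells lie at -1.29 or below, and leukocytes and ribosome biogenesis have the largest medians, 2.24 and 1.66.

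Of 29 hypoxia genes 4 fell (13.8%, against 6.8% of all genes) and 1 rose (3.45%, against 4.12%). Without 3 h replicate 2 5 fell and 3 rose, against 11.3% and 7.3% of all genes in that fit. Those that fell with 6 libraries were the oxygen-sensitive factors hif1aa, EPAS1 (ENSDARG00000057671) and HIF1A and their vascular growth factor target VEGFA (ENSDARG00000034700). The hif1aa gene was at 26.6, 23.6 and 25.6 CPM before and at 2.67, 2.60 and 5.503 CPM after (-2.81 ± 0.36 SE, adjusted p = 0.0031). VEGFA was at 17.4, 51.6 and 35.5 CPM before and at 6.0, 7.73 and 6.06 CPM after (-2.4 ± 0.41 SE), and both calls held in all 6 fits. HIF1A was at 954, 1070 and 867 CPM before and at 429, 285 and 485 CPM after (-1.27 ± 0.29 SE), a call lost without any library but 3 h replicate 2 (adjusted p = 0.0535 to 0.122), and that of EPAS1 was lost without homeostasis replicate 3 (0.0533). The gene that rose, LOX, a lysyl oxidase, was lost in the same 5 fits as HIF1A (0.0735 to 0.166).

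Of 30 glycolysis genes 4 fell (13.3%, against 6.8% of all genes) and none rose by edgeR's test (3 higher at an unadjusted p under 0.05 and none by DESeq2). ALDOC (ENSDARG00000019702), a fructose-bisphosphate aldolase, was at 253, 174 and 212 CPM before and at 50.1, 83.0 and 49.9 CPM after (-1.80 ± 0.30 SE, adjusted p = 0.0085). The others were PKM (ENSDARG00000099860), TPI1 (ENSDARG00000025012) and ENO1 (ENSDARG00000022456), at -2.41, -2.23 and -1.34, each lost in 2 or 3 fits (adjusted p = 0.0509 to 0.0856). With 3 h replicate 2 left out 8 fell, against 11.3% of all genes in that fit.

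In the antioxidant list 2 of 32 tested members fell and 1 rose, shares near those of all genes (6.25% against 6.8% and 3.12% against 4.12%). NFE2L2, the Nrf2 transcription factor, was at 1545, 1250 and 1313 CPM in homeostasis and at 350, 371 and 380 CPM at 3 h (-1.90 ± 0.25 SE, adjusted p = 0.0035), and keap1a, its inhibitor, at 91.7, 79.4 and 74.2 CPM before and at 26.5, 19.1 and 19.4 CPM after (-1.92 ± 0.25 SE, adjusted p = 0.0031). Both held in all 6 fits. HMOX1, haem oxygenase, rose from 3.83, 5.27 and 3.68 CPM to 23.2, 125 and 23.3 CPM (3.75 ± 0.70 SE; 2.45 without 3 h replicate 2), and was lost without any 1 of the homeostasis libraries (adjusted p = 0.0654 to 0.0703). The other 29 of 32 tested members were not called. Without 3 h replicate 2 11 fell and 1 rose, against 11.3% and 7.3% of all genes in that fit.

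Of 34 genes of the Bcl2 family and caspases 1 fell (2.94%, below the 6.8% of all genes). Without 3 h replicate 2 3 fell and 1 rose, against 11.3% and 7.3% of all genes in that fit. The gene that fell with 6 libraries was the anti-apoptotic gene BCL2, from 23.7, 20.1 and 17.8 CPM to 3.60, 2.60 and 3.23 CPM (-2.70 ± 0.28 SE, adjusted p = 0.0014), and this held in all 6 fits. Of 30 p53 targets 1 rose (3.33%, near the 4.12% of all genes). Without 3 h replicate 2 3 rose and 3 fell, against 7.3% and 11.3% of all genes in that fit. The gene that rose with 6 libraries was PHLDA3, a pleckstrin domain gene, at 1.6, a call lost without any homeostasis library or 3 h replicate 1 (adjusted p = 0.0514 to 0.133). The p53 target cdkn1a was at 43.0, 50.7 and 45.7 CPM before and at 20.2, 43.3 and 20.5 CPM after (-0.73, adjusted p = 0.209). Of 43 genes of the integrated stress and unfolded protein responses 2 rose and 1 fell, below or near the shares of all genes (4.12% and 6.8%). Without 3 h replicate 2 5 of 43 rose and 7 fell, larger shares than the 7.3% and 11.3% of all genes in that fit. The amino acid transporter subunit slc3a2a rose from 5.87 to 8.59 CPM up to 22.1 to 48.7 CPM, a call lost without homeostasis replicate 1 or 3 (adjusted p = 0.057 and 0.0572), and the hormone gene STC2 (ENSDARG00000056680) fell from 52.0 to 58.8 CPM down to 12.7 to 18.5 CPM and held in all 6 fits. SLC7A5, the partner of the former, was lost in all fits but the one without 3 h replicate 2 (0.0803 to 0.223).

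Markers of cells other than neuromast cells were present in both groups. The digestive enzymes of the exocrine pancreas summed to 3060, 8570 and 1370 CPM in homeostasis and to 13700, 13200 and 2260 CPM at 3 h, and liver genes to 2090 to 4150 CPM before and 1500 to 7160 CPM after. Genes of fibroblasts, notochord and cartilage summed to 2470 to 4090 CPM before and 1650 to 5740 CPM after, with 3 h replicate 2 the lowest. These groups overlapped, and 1 gene of the 3 lists was called, RBP4, a retinol carrier, which rose by 1.28 and was lost in 5 of the 6 fits, all but the one without 3 h replicate 2 (adjusted p = 0.06 to 0.191). Erythrocyte genes summed to 167 to 265 CPM before and 320 to 563 CPM after, without overlap. Of 12, 2 were called higher (16.7%, against 4.12% of all genes) and 1 lower (8.33%, against 6.8%). Without 3 h replicate 2 5 were higher and 1 lower, against 7.3% and 11.3% of all genes in that fit. Without homeostasis replicate 1 or 3 none was higher, in fits that called 195 and 131 genes higher in all. The embryonic globin hbae3 was at 64.6, 118 and 74.4 CPM before and at 157, 275 and 172 CPM after. None of 21 neuron genes and none of 13 glia genes was called by edgeR, with medians of 0.88 and 0.4 (0.41 and 0.51 without 3 h replicate 2). DESeq2 called 5 neuron genes higher and 3 lower and 1 glia gene higher, out of 1873 higher and 2141 lower in all. At an unadjusted p under 0.05, 7 neuron genes were higher and 3 lower, and 2 glia genes were higher and 1 lower. Without 3 h replicate 2 2 of 23 neuron genes and 1 of 13 glia genes fell, against 11.3% of all genes. Neuron genes summed to 119 to 129 CPM before and 63.0 to 136 CPM after. Of 24 epidermis genes 2 fell and 1 rose (8.33% and 4.17%, near the 6.8% and 4.12% of all genes). Of those that fell, pvalb8 is the hair cell gene described above. The other, krt5, a basal keratin, fell from 1393, 1379 and 1244 CPM to 418, 616 and 567 CPM (-1.33 ± 0.27 SE). Its call was lost without any homeostasis library or 3 h replicate 3 (adjusted p = 0.0616 to 0.0797). Without 3 h replicate 2 2 epidermis genes fell and 3 rose, against 11.3% and 7.3% of all genes in that fit. The pigment list held 1 gene that rose, the receptor csf1ra, which the leukocyte list holds too. The part of such RNA in the results above was not tested.

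The isl1a mutants, whose 6 libraries are not used above, give the same contrast in other larvae. In them 2970 genes were higher (14.4%) and 3180 lower (15.4%) of 20653 tested. Of the 863 genes higher in siblings 711 (82.4%) were higher in mutants, and of the 1424 lower genes 1182 (83.0%) were lower there. In the other direction these are 23.9% of the genes higher in mutants and 37.2% of those lower. The spread differed: the biological coefficient of variation was 37.5% in the sibling fit and 23.4% in the mutant fit, so the counts do not compare the sizes of the responses. Over the 20116 genes tested in both, the log2 fold changes correlated with Pearson's r of 0.74, given as a description across genes. The hair cell lists fell in mutants too: 17 of 22 mechanotransduction genes, 16 of 25 stereocilia genes and 11 of 19 ribbon synapse genes were lower. For pvalb8 the log2 fold change was -3.30 in siblings and -3.60 in mutants, for SLC17A8 -3.49 and -3.23, for FOSL1 2.94 and 3.26, for c7b 6.64 and 6.48, and for BOP1 2.04 and 1.39. Ribosome biogenesis genes rose in 59 of 62 and leukocyte genes in 26 of 37.

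The difference between the 2 responses was tested gene by gene in all 12 libraries, where 23 of 22000 genes (0.105%) were called, 22 of them with a negative difference of log2 fold changes (sibling minus mutant) and 1 with a positive one, and 1955 had an unadjusted p under 0.05. Without sibling 3 h replicate 2 the count was 190. For 3 genes the call held in all 12 fits that leave out 1 library. PTGS2 (ENSDARG00000010276) fell in siblings and in mutants rose from 26.4, 41.4 and 24.0 CPM to 83.2, 78.3 and 86.8 CPM (difference of log2 fold changes -3.50 ± 0.36 SE, adjusted p = 0.00303). PLEK2, a pleckstrin-like gene, was at 10.1, 9.50 and 11.9 CPM before and 11.2, 6.92 and 12.6 CPM after in siblings, and at 20.2, 19.5 and 18 CPM before and 215, 156 and 166 CPM after in mutants. ACSBG2, an acyl-CoA synthetase gene, fell in siblings from 90.7, 97.2 and 93.9 CPM to 22.1, 14.5 and 19.6 CPM, and in mutants was at 52.4, 54.9 and 44.8 CPM before and 59.15, 49.2 and 59.16 CPM after. BCL2 and PRDM1, which fell in siblings, were at -0.31 and 0.13 in mutants. In homeostasis BCL2 was at 9.4, 8.4 and 7.0 CPM in mutants, against 23.7, 20.1 and 17.8 CPM in siblings. PRDM1 was at 150, 214 and 162 CPM in mutants, against 288, 313 and 305 CPM in siblings. CPM were scaled within each genotype, and the part of starting levels in these differences was not tested. For BCL2 and PRDM1 the difference was called with all 12 libraries (-2.38 and -1.59) and held in 6 and 1 of the 12 fits that leave out 1 library.

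**Figure D5:**
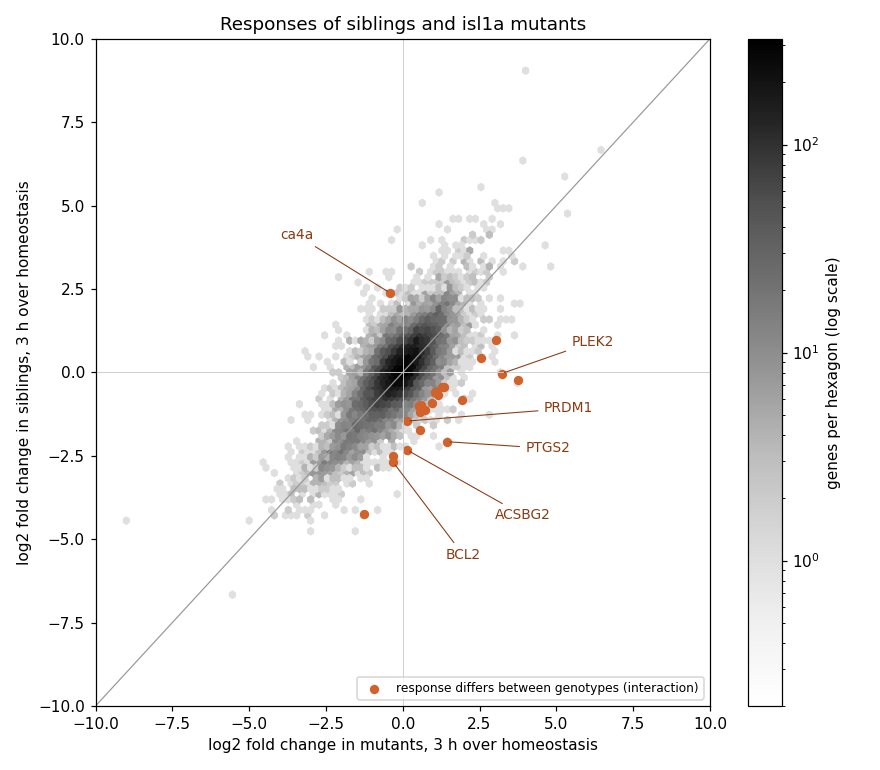
Log2 fold change 3 h after neomycin in siblings (vertical) and in isl1a mutants (horizontal) for the genes tested in both, as hexagons shaded by the number of genes, with the line of equal response. Orange points are the 23 genes whose responses differ by the test of the difference, of which 22 lie below the line and ca4a above it.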

How the data were processed

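The deposited table holds raw read counts per gene for 12 libraries, made by the authors. Per the labels' protocols, cells were dissociated with trypsin, sorted into Trizol, and their polyA RNA amplified with SMART-Seq v4, which does not mark strand. The submitters' processing notes name bcl2fastq 2.18, STAR 2.7.3a, RSEM, Bowtie2 and danRer11 without roles. Neither the annotation release nor the strand setting is given in the sources used here, so reads of overlapping genes cannot be told apart. The 4 entries that name no gene (28.18% to 33.56% of reads in sibling libraries) were left out of library sizes, which ran from 27387561 to 30354161 gene counts.

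Genes passing edgeR's filterByExpr were TMM-scaled and tested with its quasi-likelihood test (edgeR 4.0.16, R 4.3.3) on the 6 sibling libraries, with Benjamini-Hochberg adjustment over all 20939 genes and a threshold of 0.05. Errors are SE of the log2 fold change, with 3 libraries a group. They were derived from the test, as the size of the log2 fold change over the square root of its F statistic. The 6 mutant libraries were fitted separately, and the difference of the responses in all 12. DESeq2 1.42.0, limma 3.58.1 with library weights, other scaling and filters, and leaving out each library were alternatives. The scripts were tested on simulated data with known fold changes. ATAC-seq samples were not analysed here.

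Names come from a table of gene IDs and symbols that matched 29201 of 32520 genes, where 1719 symbols are shared by 6136 IDs, printed with their ID. Of 1425 names in 47 gene lists, 67 matched no gene. The members and lists were chosen with earlier results of these data known. Named genes are the 15 higher and 15 lower of smallest adjusted p (with a log2 fold change of at least 1 in size, separate groups and a call without 3 h replicate 2), the 8 of largest CPM difference each way, up to 4 called members of each list or its 2 most abundant where none was called, isl1a, and further hair cell, progenitor, Notch and Fgf genes. Not all of these are printed, some results are not reported here, and a few other list members were named after their values were seen.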

Additional observations from a re-analysis of the deposited data

Results flagged for a closer look

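The response to neomycin differed between siblings and isl1a mutants for 23 genes by edgeR's test of the difference, each given here as the sibling log2 fold change minus the mutant one. For 22 of them the difference was negative. PTGS2 (ENSDARG00000010276) had -3.503, PLEK2 -3.234 and ACSBG2 -2.45, and these 3 were called in all 12 fits that leave out 1 library. The stress phosphatase regulator ppp1r15b had -2.721 and F2RL1 (ENSDARG00000077540), a protease-activated receptor gene, -1.775, called in 9 and 10 of those fits. BCL2 had -2.38, hap1 -2.167, IRAK3 -2.041, si:ch211-129c21.1 -2.092 and cyp3c3 -3.974, called in 6, 5, 4, 3 and 2 fits. The remaining negative differences were -1.701 for GTPBP1 (ENSDARG00000053467), -1.616 for pard6a, -1.531 for tmcc1b, -1.544 for SLC38A3 (ENSDARG00000027065), -1.586 for PRDM1, -1.548 for RHPN2, -2.958 for coro2ab, -1.817 for rapgef3, -1.729 for ptpdc1a, -2.275 for atp2b3b, -1.817 for UGCG and -1.827 for the co-chaperone gene BAG3. The carbonic anhydrase gene ca4a was the exception, with 2.808.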

How the results depend on the processing

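Against 863 genes higher and 1424 lower, DESeq2 gave 1873 and 2141, limma with library weights 2551 and 3143, and 12 libraries in 1 fit 2464 and 2367. Leaving out 1 library gave 87 to 1579 higher and 606 to 2442 lower. The mutant count of 6150 was 3634 with 12 libraries in 1 fit. The 23 differences between responses became 374 with DESeq2, 379 with library weights, 1 with the replicate block, and 3 to 190 when 1 library was left out. Deviations of same-numbered sibling libraries from their group means correlated with r of 0.282, -0.0449 and 0.0821, against -0.341 to 0.195 for the other pairs. With 3 libraries a group, 1 of them apart, these values cannot decide whether the numbers pair the samples. The replicate block gave 581 higher and 1162 lower genes in siblings, and 7155 called genes in mutants. Of 156 genes given by the naming rule, no called gene changed direction under any alternative run, and between 1 and 52 lost their call when 1 library was left out, the most without homeostasis replicate 2. Of the 94 counts over lists, 61 moved by over 1.5 times with library weights and 1 with other size factors. The cause of these moves was not tested. With 3 libraries a group, 1 of them apart, differences near the threshold are not settled.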
